A study of Mus musculus with 8 samples.

Results

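Macrophages of wild-type mice given lipopolysaccharide (LPS), a bacterial endotoxin, were described here by the order of their genes on a whole-genome expression array. The members were the 14014 named genes, of 20886 on the array (67.1%), that had a probe well above background on all 4 wild-type arrays, WT 1 to WT 4. Each gene was placed by its brightest such probe. A value is log2 of the probe's processed signal minus the 75th percentile of that signal over the array's gene probes, so 0 is that percentile itself and 1 unit is a doubling of signal. Rank 1 is the highest mean over the 4 arrays. Ranks order spots by brightness, which also depends on the sequence of each probe, so they are given as a description with no test.

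The series holds 8 arrays, 4 of WT mice and 4 of EP2KO mice, which lack EP2, a receptor for prostaglandin E2; the series was concerned with that receptor in macrophages and in repair of the heart. All mice were male by their labels and all had been given LPS. The labels give no tissue of origin, dose, time after LPS or age, and do not state whether each array stands for its own mouse. The p-values below therefore reflect differences among these arrays, which may be technical. The EP2KO arrays enter below only to show whether differences between the 2 slides that carried the arrays recur outside the WT group.

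LPS is bound at the macrophage surface by Cd14 and signals through the receptor Tlr4 to transcription factors of the NF-kB family, which switch on cytokines, acute-phase proteins and their own inhibitors. Macrophages also clear particles and dying cells into lysosomes, acidic compartments filled with cathepsin proteases and lipid hydrolases. Mature tissue macrophages carry the surface protein F4/80, encoded by Adgre1, and depend on the growth factor receptor encoded by Csf1r.

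Slide 1 carried WT 1, WT 2, EP2KO 1 and EP2KO 2, and slide 2 the other 4 arrays. The slides were scanned on different days, so slide, scan day and the source of the cells cannot be told apart. On the WT arrays 25554 to 32142 of 39429 probes were well above background, 0 spots were saturated, and probes spotted 10 times had a median SD of 0.06 to 0.09 log2 units within an array. One check went against the labels. Xist, the RNA of the inactive X chromosome of female cells, was well above background on all 4 WT arrays with both of its probes and held rank 6992, at -1.01, -0.56, 0.26 and 0.56 on WT 1 to WT 4. Of the genes of the Y chromosome, Kdm5d, Zfy1, Ddx3y and Eif2s3y were well above background on 0 of the 4 arrays, and Uty, Usp9y and Zfy2 on 1 array each. The remaining one, Sry, was well above background on all 4 arrays but held rank 13862, near the bottom. Sry aside, the libraries labelled male thus went against that label, and their sex is not used further.

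The brightest gene was Tpt1, the translationally controlled tumour protein, at 7.96, 7.82, 7.71 and 7.52 on WT 1 to WT 4. Its rank on single arrays lay between 1 and 4. Actb, the cytoplasmic actin, followed at 7.80, 7.92, 7.68 and 7.57, and Gpx1, a peroxide-removing enzyme, at 7.83, 7.87, 7.74 and 7.52. Apoe, the lipid carrier that macrophages secrete, held rank 4 at 7.73, 7.78, 7.49 and 7.48. These genes changed places among themselves from array to array, and their means, 7.62 to 7.75, differed by less than the SD of 0.15 to 0.19 that each had over the 4 arrays. Ribosomal proteins filled much of what came next, with Rpl10 at rank 6, Fau at 8, Rps14 at 9, Rpl41 at 15 and Rps16 at 18. Aldoa, a glycolytic enzyme, stood at rank 11, Cotl1, an actin-binding protein, at 13, and Cyba, a subunit of the phagocyte oxidase, at 16. The chemokine with the highest rank was Ccl6, at 26, with 7.22, 7.09, 7.30 and 7.06, and the ferritin chain Fth1 stood at 31.

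The order was steep at the top. The 100 brightest genes held 15.8% to 18.3% of the summed signal of the ranked genes on an array, the 1000 brightest 58.1% to 61.2%, and the 78 ribosomal protein genes 7.59% to 10.9%. Of the 100 brightest genes of each array, 61 were shared by all 4. Between pairs of arrays the shared number ran from 66, for WT 2 and WT 4, to 89, for WT 1 and WT 2.

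**Figure D1:**
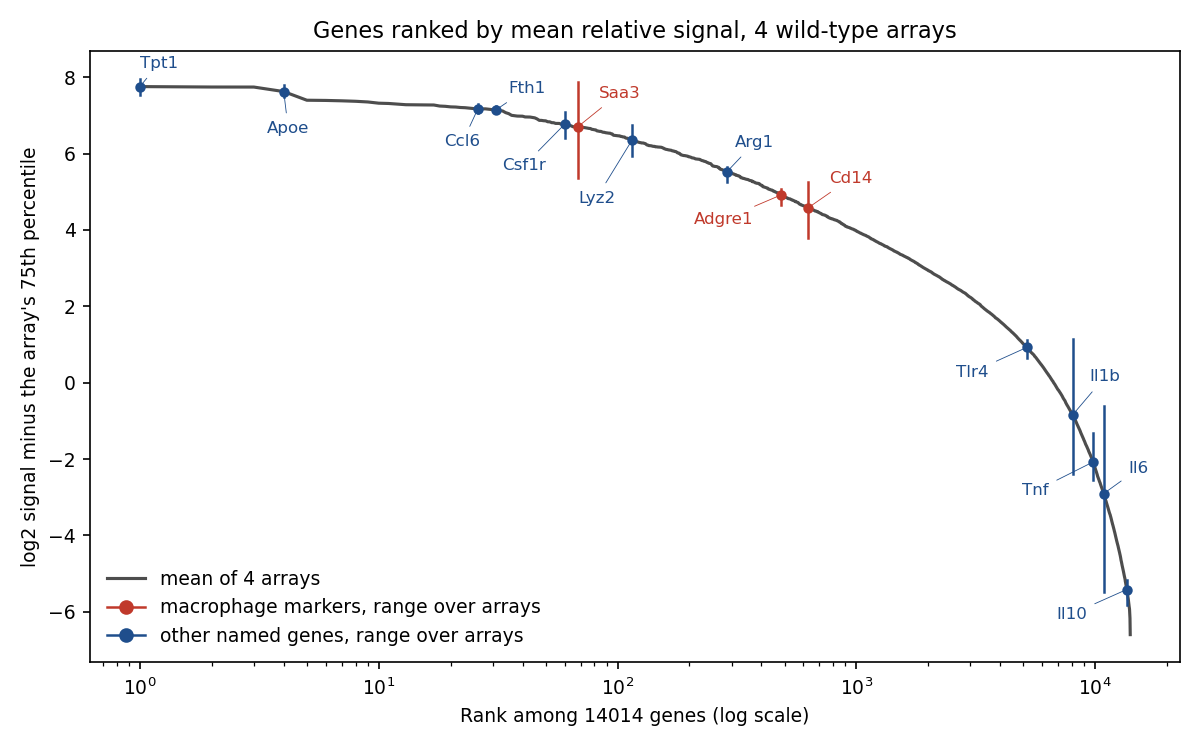
Mean log2 signal relative to the array's 75th percentile (vertical axis) against rank among 14014 genes (horizontal axis, log scale) for the 4 wild-type arrays; points are named genes and vertical lines their lowest to highest array. Saa3, at rank 68, spans 5.37 to 7.88, while Adgre1, at rank 484, spans 4.66 to 5.06, and cytokines such as Il1b and Il6 lie far down the curve.

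Some high places rested on the brightest of several probes that read far apart. Which of the probes reflects the gene was not tested. Of the 100 brightest genes, 55 had several probes with values, and in 20 of these (36.4%) the dimmest probe lay over 3 log2 units below the brightest, against 46.4% of the 4461 ranked genes with several probes. Slc10a1, the bile acid transporter of liver cells, held rank 10 with a mean of 7.32 by its brightest probe, while its dimmest averaged -8.69. The corresponding pair of means was 7.22 and -5.53 for Kctd14, 7.17 and -4.70 for the transcription factor Elk1, and 7.38 and -2.95 for Glrx2, a mitochondrial glutaredoxin. When the median of a gene's kept probes stood for it, 70 of the 100 genes kept a place in the brightest 100 and 11 fell beyond rank 1000, among them Glrx2 at 2776, Elk1 at 3838, Kctd14 at 9851 and Ttc38 at 8345. Slc10a1, which had 1 kept probe, moved to rank 8. Csf1r, whose 3 probes averaged from 1.04 to 6.77, went from rank 60 to 1635. Actb, Gpx1 and Apoe had a single probe each, so this comparison could not be made for them.

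By function, the highest place went to protein synthesis. All 78 measured ribosomal protein genes were ranked, with a median rank of 116.5 against 7007.5 for all ranked genes, and 35 were among the 100 brightest. Among the 1000 brightest, which hold 7.14% of all ranked genes, were 77 of the 78. Translation factors, a list headed by Tpt1, lay lower, with all 31 ranked at a median rank of 948 and Pabpc1, the poly(A)-binding protein, at 172. The actin cytoskeleton, which drives phagocytosis and movement, had 30 of 40 genes among the 1000 brightest and a median rank of 342.5. Behind Actb came Capg at rank 45, Myl6 at 56 and Actg1 at 57. Myl6 and Actg1 varied little, with SDs of 0.10 and 0.11 over the 4 arrays. Capg had an SD of 0.29, and both its slide 2 values lay above both slide 1 values.

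Lysosomal genes came next, at a median rank of 713.5, with all 46 measured members ranked and 26 among the 1000 brightest. The proteases led, with cathepsin D (Ctsd) at rank 38, cathepsin B (Ctsb) at 79 and cathepsin S (Ctss) at 98, and the membrane protein Lamp1 stood at 67. Genes of energy supply also lay high: 71 of 71 genes of oxidative phosphorylation had a median rank of 863, led by Cox6a1 at 41, and 21 of 21 of glycolysis a median rank of 1269, led by Aldoa, Gapdh at 40 and Ldha at 81. The 36 proteasome subunits had a median rank of 1205.5. Redox genes were ranked in 28 of 31 cases at a median of 1027, led by Gpx1.

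Antigen presentation ranked at a median of 1651.5 over 28 of 28 genes, and 4 were among the 100 brightest. These were the class I heavy chains H2-D1 at rank 62 and H2-K1 at 64, and the class II chains H2-Eb1 at 71 and H2-Ab1 at 89. Complement was divided. The soluble components C3 at rank 167, C1qc at 174 and C1qb at 210 and the activator Cfp at 111 were bright, while 2 of 34 measured genes, C9 and Masp1, were well above background on no WT array. Iron storage genes stood out within their list, with Fth1 at 31 and Ftl1 at 78 against a list median of 3052.

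**Figure D2:**
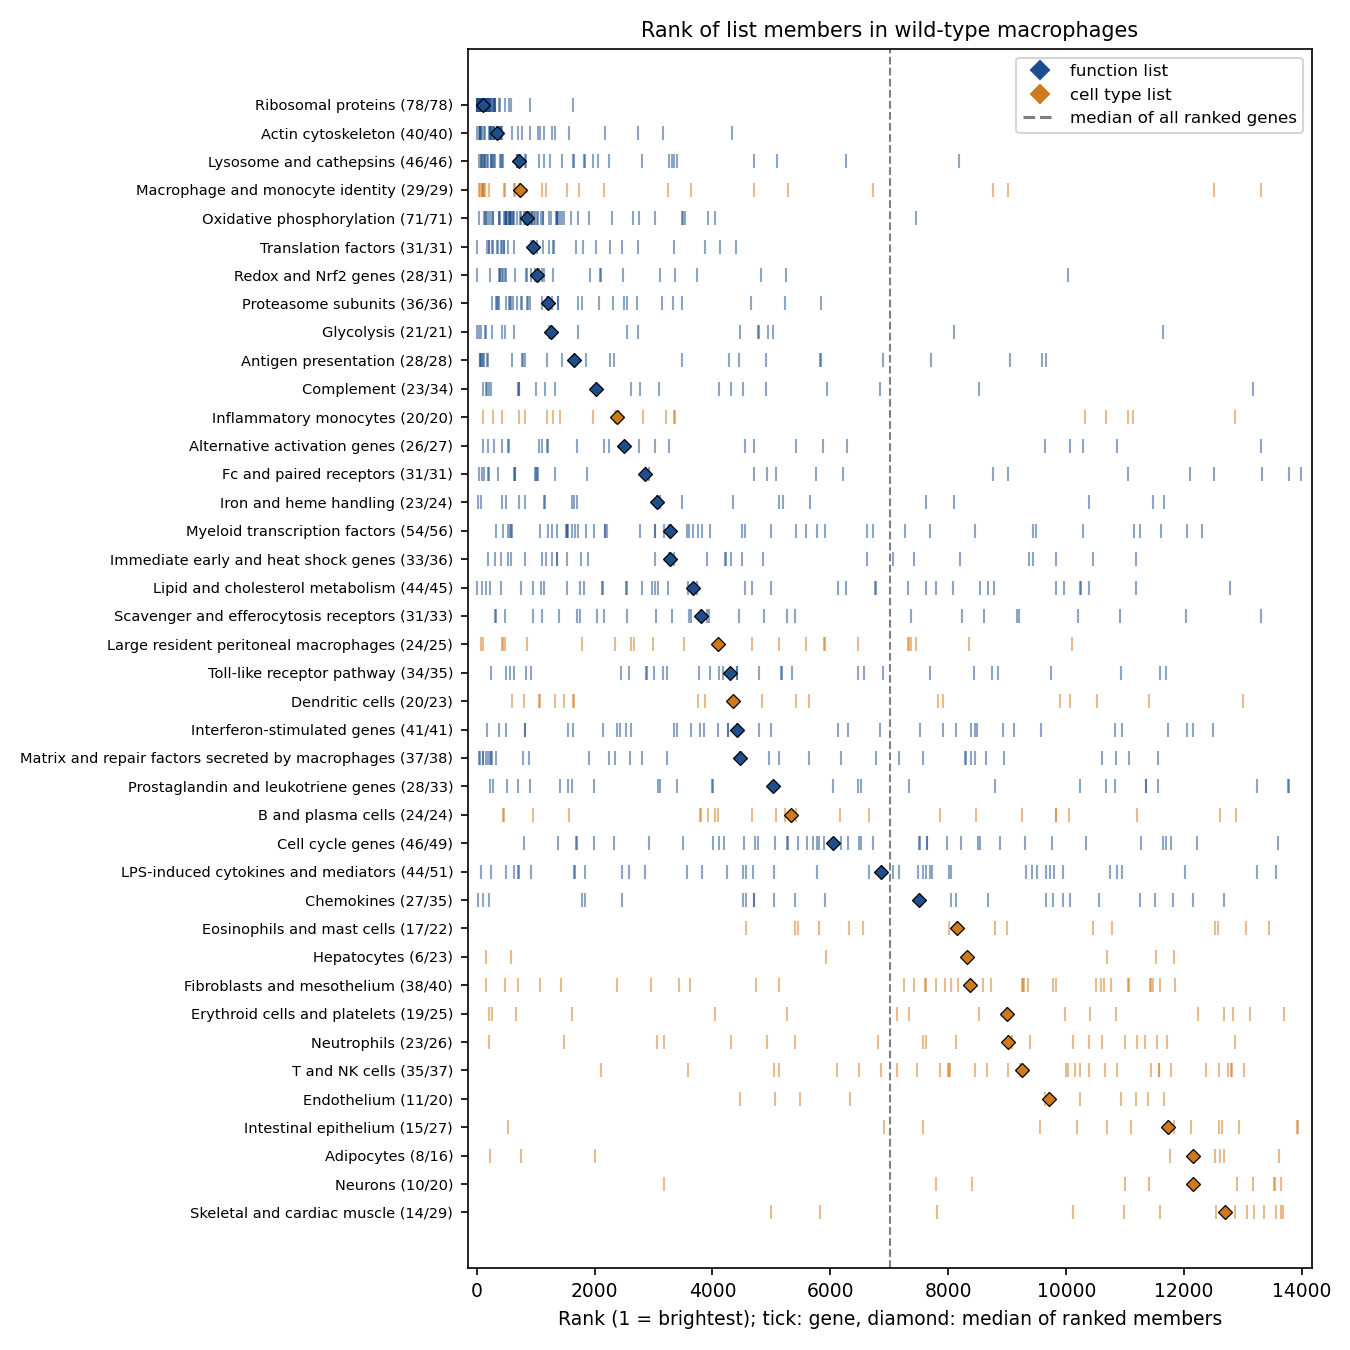
Rank of every ranked member (tick) of 24 function lists and 16 cell type lists, with the median as a diamond; numbers beside each name are ranked members of members on the array, and the dashed line marks the median of all ranked genes. Ribosomal, actin and lysosomal genes and macrophage identity genes crowd the left edge, and lists of muscle, adipocytes, neurons and intestine lie at the right with many members unranked.

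Markers of macrophages were bright on all 4 arrays. Adgre1 (F4/80) was at 5.04, 5.06, 4.91 and 4.66 on WT 1 to WT 4, rank 484, with a narrow SD of 0.18. Cd14, the LPS co-receptor, was at 4.96, 5.25, 4.32 and 3.79, rank 629, both arrays of slide 1 lying above both of slide 2. Saa3, an acute-phase serum amyloid that LPS-treated macrophages make, was at 7.69, 7.88, 5.37 and 5.84. It was 5th and 2nd on WT 1 and WT 2 but only 372nd and 199th on WT 3 and WT 4. All 29 measured genes of macrophage and monocyte identity were ranked, at a median of 729, with 15 among the 1000 brightest. They included the signalling adaptor Tyrobp at rank 43, Csf1r at 60, the Fc receptor chain Fcer1g at 95 and lysozyme (Lyz2) at 115. The signalling adaptors kept their level on both slides: Tyrobp read 6.90, 7.16, 7.06 and 6.70, and Fcer1g 6.45, 6.67, 6.53 and 6.41.

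Myeloid transcription factors lay lower, at a median rank of 3279.5 for 54 of 56 genes. The stress factor Atf4 led at rank 337, Cebpb stood at 597, and the lineage factor Irf8 at 1067. Spi1, which encodes PU.1, was only at rank 6731 with its single probe, at 0.22, 0.29, -0.32 and -0.27. Alternative activation genes had a median rank of 2498.5 with 26 of 27 ranked. Fibronectin (Fn1) at rank 109, Retnla at 196, the arginine-degrading enzyme Arg1 at 287 and F13a1 at 428 led that list. Arg1 read 5.60, 5.27, 5.56 and 5.65 and did not part the slides.

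Marker genes of large resident peritoneal macrophages were ranked in 24 of 25 cases, at a median of 4093.5. Beside Saa3 and Fn1, the adhesion molecule Icam2 stood at rank 438 and coagulation factor F10 at 444. Gata6, the transcription factor that defines these cells in the peritoneum, was at rank 5590 with 1.39, 0.55, 0.23 and 0.57. Inflammatory monocyte genes were ranked in 20 of 20 cases at a median of 2377.5, led by Fn1, Ms4a4c at 284, F13a1 and haptoglobin (Hp) at 727.

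Other cell types left traces of unequal depth. All 24 measured genes of B and plasma cells were ranked, at a median of 5328, among them Cd79b, part of the B cell receptor, at rank 952 and Ms4a1 (CD20) at 1561. T and NK cell genes were ranked in 35 of 37 cases at a median of 9249, led by Cd2 at 2106, Nkg7 at 3592 and Gzma at 5049. Neutrophil genes had a median rank of 9010 (23 of 26), with the growth factor receptor Csf3r at rank 214 (5.91, 6.29, 5.59 and 5.63), the only one among the 1000 brightest, and the calprotectin chains S100a9 at 1478 and S100a8 at 3067. Fibroblast and mesothelial genes were ranked in 38 of 40 cases at a median of 8373.5, yet Dcn, a matrix proteoglycan, stood at 477 and the collagen Col1a2 at 708. Whether such RNA came from other cells or from macrophages was not tested, and in bulk RNA fewer cells of a type and less RNA per cell cannot be told apart.

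Tissues far from the immune system gave fewer ranked genes. Of 29 muscle genes 14 were ranked, at a median of 12700.5, and Casq2, Mb, Myh2, Myl1 and Pln were well above background on no WT array. Of 20 neuronal genes 10 were ranked at a median of 12151, and of 23 hepatocyte genes 6. Endothelial genes were ranked in 11 of 20 cases, and the receptors Tek and Tie1 and the factor Sox17 were well above background on no array. For scale, 125 of 1323 olfactory and vomeronasal receptor genes (9.45%), which macrophages hardly use, also passed the filter, at a median rank of 13080. A rank near that level therefore says little about use of a gene.

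Genes that LPS induces ran from the top to the bottom of the order. Of 51 such cytokines and mediators 44 were ranked, at a median of 6853, near the 7007.5 of all genes. Saa3 led, followed by the protease inhibitor Slpi at rank 237, the mitochondrial superoxide dismutase Sod2 at 490 and Cd14 at 629. Classical cytokines lay low: Il1b held rank 8047, Tnf 9794, the nitric oxide synthase Nos2 10747, Il6 10855 and Il10 13550. Tnf read -2.20, -2.23, -1.31 and -2.56. Il12a, Il23a and Csf3 were well above background on no WT array. Interferon-stimulated genes were all ranked (41 of 41) at a median of 4420, led by Ifitm3 at 178, Ifitm2 at 379 and Ifi27l2a at 491. Of the LPS-sensing pathway 34 of 35 genes were ranked, at a median of 4304, with Ly86 at 241 ahead of the others. Chemokines were ranked in 27 of 35 cases at a median of 7511, but Ccl6, Ccl9 at 106 and Pf4 at 216 were bright.

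Genes of prostaglandin and leukotriene synthesis and sensing had a median rank of 5030 (28 of 33). The leukotriene genes Alox5ap at rank 230 and Ltc4s at 271, the thromboxane synthase Tbxas1 at 519 and the prostaglandin E synthase Ptges at 694 led the list. The inducible cyclooxygenase Ptgs2 was at rank 13237, at -4.37, -5.28, -5.34 and -5.24, highest on WT 1. These values lay near the median of olfactory and vomeronasal receptor genes (-4.90), so its difference among arrays is uncertain. Ptger2, which encodes EP2, was at rank 6527 with 0.10, 0.28, -0.04 and 0.10, and Ptger4, the gene of the related receptor EP4, at rank 7339.

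The 4 arrays were alike in order but not in every gene. Across genes, which are not independent replicates, Pearson's r was 0.977 between WT 1 and WT 2, 0.988 between WT 3 and WT 4, and 0.931 to 0.946 between arrays of different slides. The first principal component, with 75.8% of the variance, parted the slides, and the second, with 16.2%, parted WT 1 from WT 2. The median SD of a gene over the 4 arrays was 0.32 log2 units, against 0.06 to 0.09 between spots of 1 probe. With the ranking cut into 10 equal parts, the median SD ran from 0.25 in the second to 0.51 in the ninth. Genes with an SD above 1 made up 3.93% of the first, brightest part and 11.7% of all (1640 genes). In 1373 of these 1640 (83.7%) the arrays of one slide did not overlap with those of the other, against 66.8% of all ranked genes.

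**Figure D3:**
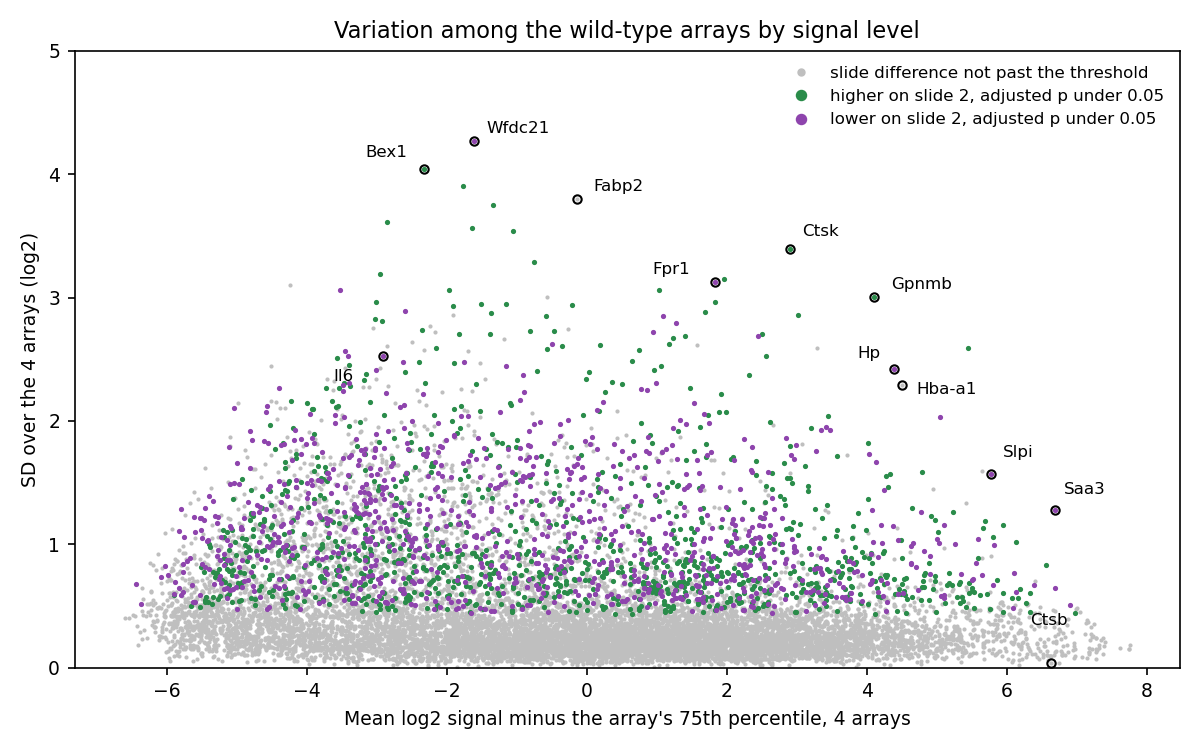
SD over the 4 wild-type arrays (vertical axis, log2 units) against mean relative signal (horizontal axis) for the 14014 ranked genes; colour marks genes past the slide threshold and open circles named genes. Most genes lie under an SD of 1, Ctsb sits at the bottom right with 0.04, and genes called between slides form the upper part together with uncalled genes such as Fabp2 and Hba-a1.

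Among the 1000 brightest genes the steadiest were Snx17, a sorting nexin of endosomes, with an SD of 0.02, the ribosomal RNA gene Rn28s1 (0.03), Prkcsh (0.03), Tmbim6 (0.03) and Gm12070 (0.04). Cathepsin B was in this group, at 6.59, 6.63, 6.69 and 6.61, as were the lysosomal galactosidase Gla (0.04), Atf4, the citrate synthase gene Cs and the initiation factor Eif3c (0.05 each). Repeated spots of probes well above background had a median SD of 0.05 to 0.08 within an array, so the order among these genes was not resolved.

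Slides were compared within WT with limma (2 arrays each, two-sided, Benjamini-Hochberg adjustment over 19755 genes and unnamed probes). At an adjusted p of 0.05, 1418 features (7.18%) were higher on slide 2 and 1435 (7.26%) lower. In either direction that was 14.4%, and 6927 (35.1%) had an unadjusted p under 0.05. Both arrays of slide 2 lay above both of slide 1 in 32.0% of features and below both in 35.3%. The calls were lost in 4 alternatives: limma called 0 without WT 3 (4854 at an unadjusted p under 0.05), 0 without WT 4 (4427), 0 with normexp on the median spot signal in place of the processed signal (2448) and 0 with no filter on dim probes (7536). The differences themselves stayed close without WT 3 or WT 4, at list medians of 0.69 and 0.72 for lysosomal genes and -2.32 and -2.46 for T and NK cell genes, against 0.71 and -2.43. Without WT 1 it called 2789 features and without WT 2 2322. For any single gene an exact permutation test of 2 arrays against 2 cannot go below p = 0.333.

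Lysosomal genes were higher on slide 2. Of 46 ranked members 21 rose and 1, the protease gene Ctsc, fell by this test, and the median difference was 0.71, against -0.02 over all ranked genes. Without WT 1, 9 rose, and without WT 2, 11. Cathepsin K (Ctsk), a collagen-degrading protease, was at 0.69 and -0.68 on WT 1 and WT 2 and at 5.53 and 6.06 on WT 3 and WT 4. Both slide 2 arrays lay far above slide 1, a difference of 5.79 ± 0.52 (SE, 2 arrays per slide, limma adjusted p = 0.0112). The proton pump subunit Atp6v0d2 read -0.12, -1.34, 4.59 and 4.72 and differed by 5.39 ± 0.44 (limma adjusted p = 0.0109). Cathepsin D rose from 6.59 and 6.60 to 7.38 and 7.35, by 0.77 ± 0.16 (limma adjusted p = 0.0472). Lamp1, at 6.51, 6.72, 6.83 and 6.73, did not pass (limma adjusted p = 0.539).

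The promoters of Ctsd and Lamp1 are shown as bright lysosomal genes with the E-box that the lysosomal regulator Tfeb and its relatives bind, one of which rose between slides while the other did not pass. The sequences are the 250 bases before the RefSeq start in GRCm38.p6, read 5′ to 3′ on the gene's strand, with GTCACGTG on either strand in capitals.
Ctsd, minus strand, chr7:142387828-142388077: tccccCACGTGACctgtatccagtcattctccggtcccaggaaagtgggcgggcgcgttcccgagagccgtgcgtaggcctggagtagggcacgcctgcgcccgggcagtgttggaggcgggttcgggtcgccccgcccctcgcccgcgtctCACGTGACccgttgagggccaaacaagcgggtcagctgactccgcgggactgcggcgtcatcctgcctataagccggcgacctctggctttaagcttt
Lamp1, plus strand, chr8:13158911-13159160: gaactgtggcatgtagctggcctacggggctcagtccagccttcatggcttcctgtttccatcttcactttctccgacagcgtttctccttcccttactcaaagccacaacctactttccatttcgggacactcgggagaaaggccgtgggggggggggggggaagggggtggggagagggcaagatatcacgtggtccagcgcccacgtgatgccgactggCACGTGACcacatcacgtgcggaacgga
Of 35 ranked lysosomal genes with a promoter entry 8 (22.9%) held GTCACGTG in this window, against 397 of 11167 ranked genes (3.56%) and 571 of 27025 genes in the table (2.11%). The 8 were Ctsd, Lamp1, Ctsa, Gla, Lgmn, Glb1, Mcoln1 and Cln3, and they include genes that rose on slide 2 as well as the steady Gla. The shorter CACGTG, which GTCACGTG contains, lay in 28.6% of the lysosomal and 9.38% of the ranked genes. These are among 14 spellings tried after the lists were known, and a match does not show that a factor binds there in these cells.

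Lipid handling, scavenging and matrix genes also leaned to slide 2. In the lipid list 14 rose and 3 fell of 44 ranked, including the lipid droplet protein Plin2 (5.12, 5.40, 6.98 and 7.05), lipoprotein lipase Lpl (4.96, 4.80, 6.77 and 6.66) and the fatty acid binders Fabp5 and Fabp4. In the scavenger list 10 rose and 4 fell of 31, and 18 had a difference above 0, at a median of 0.45. Over all features 7.18% rose and 7.26% fell, so both counts of the scavenger list lay above those shares. Mfge8, which bridges macrophages to dying cells, was at 3.70 and 2.76 on slide 1 and at 7.59 and 7.74 on slide 2, where it ranked 4th and 1st. Of 37 ranked matrix and repair factors 14 rose and 5 fell: Gpnmb, a lysosomal glycoprotein of lipid-laden macrophages, read 2.34, 0.79, 6.78 and 6.52, osteopontin (Spp1) 0.96, 0.15, 5.59 and 5.34, and the elastase Mmp12 1.36, -0.76, 5.12 and 4.29. Fc and paired receptors did not lean either way, 5 rising and 3 falling of 31 at a median of -0.09, though Trem2 rose, at 5.39, 4.59, 7.02 and 6.78. Among genes past the threshold, those with the largest rise were Bex1 (6.68), Calca (6.62), Npy (6.34), Dio2 (6.19), the serotonin receptor Htr2b (6.13), Prss46 (6.04), Ctsk, Stra6l (5.64) and the scavenger receptor Stab2 (5.51). Calca lay on slide 1 near the level of olfactory and vomeronasal receptor genes, so the size of its rise is uncertain.

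LPS-induced mediators ran the other way. Of 44 ranked members 19 fell on slide 2 and 4 rose, and the median difference was -0.95. Saa3 fell by 2.18 ± 0.23 (SE, limma adjusted p = 0.0138) and Slpi, at 7.11, 7.15, 4.36 and 4.45, by 2.73 ± 0.16 (limma adjusted p = 0.0106). Haptoglobin (Hp), an acute-phase binder of haemoglobin, read 6.17, 6.80, 2.26 and 2.36, and Il6 read -0.85, -0.62, -4.65 and -5.49. Acod1, which makes itaconate, was at 1.79, 1.71, -2.20 and -3.27, and Il1b at 0.23, 1.15, -2.39 and -2.35. The formyl peptide receptors Fpr1 (4.20, 4.81, -0.27 and -1.39) and Fpr2 (3.11, 3.95, -1.07 and -1.63) and the whey acidic protein family gene Wfdc21 (0.82, 3.11, -4.52 and -5.85) showed, among genes past the threshold, the largest falls together with 4933438K21Rik and Tph1. In each of these the slide 1 values lay above both slide 2 values, as in 35.3% of all features. The genes with the largest falls were picked for their difference in these same arrays, so for them this was fixed in advance. On slide 2 Wfdc21 and Il6 lay near the median of olfactory and vomeronasal receptor genes (-4.90), so the size of their falls is uncertain. The 4 that rose were the chemokines Ccl3 and Ccl4, the receptor antagonist Il1rn and Tnfaip2. The other members did not pass, and 12 of the 44 had a difference above 0. Among those that did not pass was Cd14, whose difference of -1.05 ± 0.26 did not pass (limma adjusted p = 0.0646).

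The promoters of Il6 and Saa3 are shown as the cytokine and the acute-phase gene of this group, from the same table and window. In Il6 the capitals mark an NF-kB element, spelled GGGA, any base, then TTTCC, and in Saa3 TTGCNNAA, a core of sites for C/EBP factors such as Cebpb, on either strand.
Il6, plus strand, chr5:30012864-30013113: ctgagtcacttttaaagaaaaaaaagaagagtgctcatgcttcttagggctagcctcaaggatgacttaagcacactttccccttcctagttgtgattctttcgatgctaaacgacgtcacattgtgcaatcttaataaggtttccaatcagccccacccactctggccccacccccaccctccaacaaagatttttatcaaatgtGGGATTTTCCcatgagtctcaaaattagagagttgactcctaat
Saa3, minus strand, chr7:46715677-46715926: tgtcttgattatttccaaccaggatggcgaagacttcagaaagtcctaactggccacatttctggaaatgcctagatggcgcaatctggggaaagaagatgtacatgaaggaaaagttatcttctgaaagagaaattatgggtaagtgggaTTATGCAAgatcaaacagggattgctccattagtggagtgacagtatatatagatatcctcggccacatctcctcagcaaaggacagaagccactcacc
The NF-kB spelling lay in 6 of 29 ranked LPS-induced genes with an entry (20.7%), which were Il6, Nfkbia, Nfkb2, Csf1, Cxcl1 and Cxcl2, against 0.546% of ranked genes and 0.414% of all genes. TTGCNNAA lay in 6 of 29 (20.7%), against 9.65% and 10.8%, and its matches included Saa3, Slpi, Lcn2 and Il6. A stricter spelling of the same core, TTGCGNAA, lay in 3.45% of these genes and 1.16% of the ranked genes. Cebpb itself read 5.14, 5.56, 3.83 and 4.03, lower on slide 2 by 1.42 ± 0.22 (limma adjusted p = 0.0273), and Nfkbia, the NF-kB inhibitor, read 4.96, 5.38, 3.03 and 2.92.

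Markers of lymphocytes, mast cells and neutrophils fell on slide 2 beside these genes. Of 35 ranked T and NK cell genes 31 fell and 1, Cd28, rose, with a median difference of -2.43. The T cell receptor component Cd3d read 1.12, 0.53, -2.33 and -2.60. The summed signal of the T and NK list was 64.3 and 59.0 times the 75th percentile on WT 1 and WT 2 and 12.8 and 13.2 times on WT 3 and WT 4. Of 24 B and plasma cell genes 15 fell and 3 rose, and Cd79b read 5.69, 5.36, 2.41 and 2.68. Of 23 neutrophil genes 12 fell and 3 rose, with summed signals of 126.7, 156.6, 66.1 and 67.8. Of 17 eosinophil and mast cell genes 8 fell and 1, Hpgds, rose; the mast cell carboxypeptidase Cpa3 read 3.09, 2.30, -1.36 and -0.97. Lymphocyte genes thus lay lower on both slide 2 arrays, and their part in the fall of LPS-induced genes was not tested.

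Genes of antigen presentation and of resident peritoneal macrophages moved with them. Of 28 presentation genes 11 fell and 0 rose by limma, or 3 without WT 2, with H2-Aa at 5.08, 5.79, 3.64 and 4.01 and the largest fall in H2-DMb2, at 0.29, -0.20, -3.35 and -2.93. Of 24 peritoneal macrophage genes 12 fell and 1, Cd93, rose, at a median of -1.71, with Icam2 at 6.46, 7.08, 3.75 and 2.91. Of 41 interferon-stimulated genes 7 fell and 0 rose. Of 28 prostaglandin and leukotriene genes 10 fell, among them Alox5ap and Ltc4s, and 1 rose, the prostaglandin D synthase Hpgds. Of 29 macrophage identity genes 6 rose and 2 fell, at a median of -0.09. Over all features 7.18% rose and 7.26% fell. The falls among identity genes thus lay near the share of all features, while the rises lay above it. Ribosomal proteins mostly stayed under the threshold: 1 of 78 had a difference above 0, the median was -0.57, and 2, Rps9 and Rpl18, fell.

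**Figure D4:**
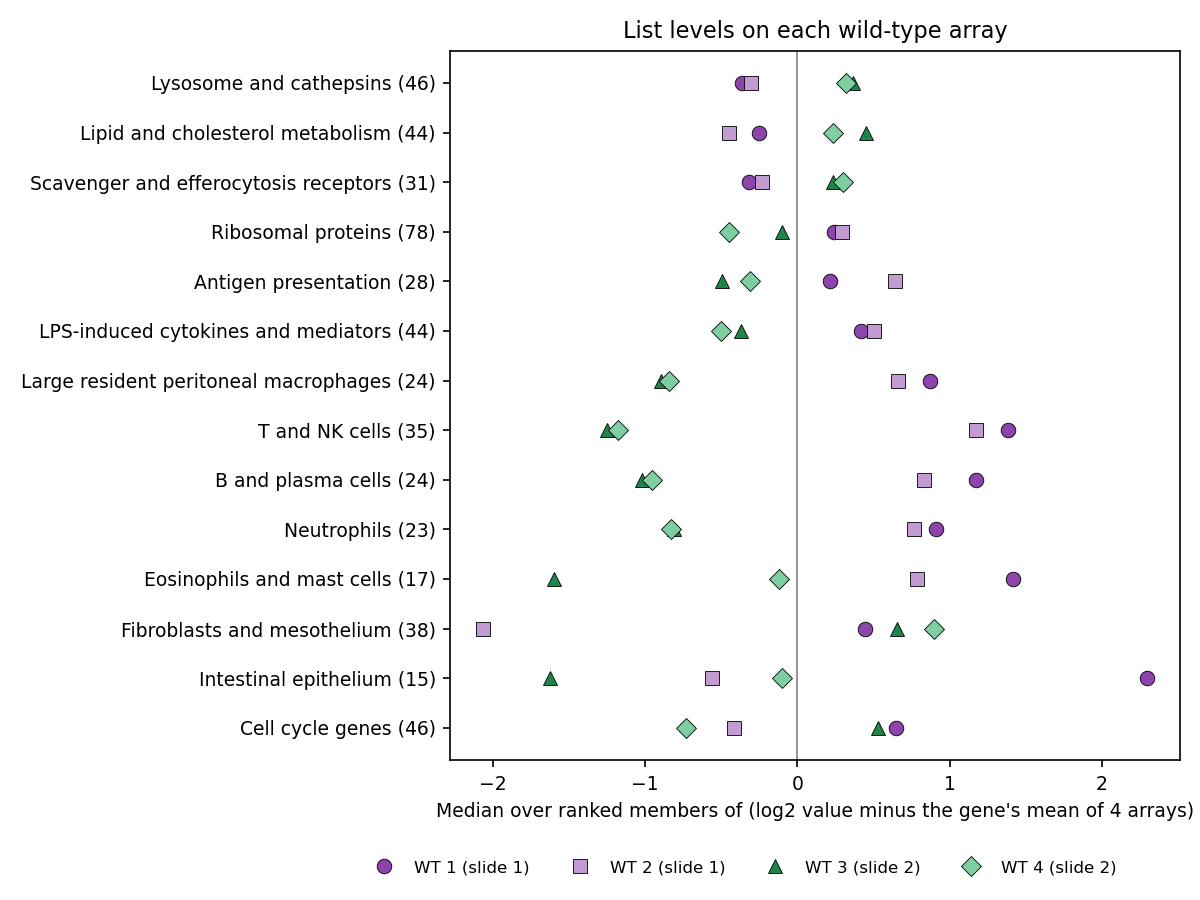
For 14 gene lists (ranked members in brackets), the median over members of each gene's log2 value minus its own mean over the 4 wild-type arrays (horizontal axis), 1 symbol per array. Lysosomal, lipid and scavenger lists lie higher on slide 2 and lymphocyte, neutrophil and LPS-induced lists higher on slide 1. The fibroblast list is set apart by WT 2 at -2.06, while the intestinal list is spread over the arrays and highest on WT 1 at 2.29.

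The EP2KO arrays, fitted separately, also differed between slides: 9479 of the same 19755 features (48.0%) were called. Of the 2853 features called in WT, 2683 had the same sign in EP2KO and 2365 were called with that sign, while 73.4% of all features had the same sign in both. The arrays of the 2 groups share their slides. The lysosomal list had a median difference of 1.01 there, the T and NK list -1.70, the LPS-induced list -1.34 and the peritoneal macrophage list -2.22. Calca, high on slide 2 in WT (-4.19, -5.94, 1.12 and 1.98), had a difference of -1.53 in EP2KO. Cell cycle genes, at a median of -0.26 between slides in WT, were at -2.54 in EP2KO. The WT value depended on single arrays: it was 0.19 without WT 1, -0.80 without WT 2, -0.92 without WT 3 and 0.39 without WT 4.

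Some genes varied within a slide. Fibroblast and mesothelial genes had centred medians of 0.44 on WT 1, -2.06 on WT 2, 0.66 on WT 3 and 0.90 on WT 4. Decorin (Dcn) read 4.84, 2.93, 5.93 and 6.07, Col1a2 5.18, 2.77, 4.68 and 5.10, and the mesothelial surface protein Msln 0.16, -3.86, 0.54 and 0.03. WT 2 was the low array in all 3. Between slides this list had 3 members higher and 1 lower of 38, at a median of 1.69, against -2.56 in EP2KO; without WT 1 29 were called higher and without WT 2 5. One array stood apart from the other 3, by Dixon's criterion, in 3.57% of ranked genes. Among those with an SD above 1, WT 2 was the low array in 76, WT 1 the high array in 6 and WT 2 the high array in 2.

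Globin genes were highest on the same array. Hba-a1, an alpha globin, was at 4.61, 7.66, 3.31 and 2.42, which put it at rank 7 on WT 2 and at 632, 1630 and 2665 elsewhere. Hba-a2 read 5.98, 7.72, 4.83 and 4.04, and the beta globin Hbb-bt 3.52, 6.79, 2.03 and 0.80. Summed over the erythroid and platelet list, the signal came to 632.2 times the 75th percentile on WT 2 and to 174.4, 117.1 and 79.8 times on WT 1, WT 3 and WT 4. The globins carry most of the sum on WT 2. Over the 19 ranked members, globins included, the centred medians were 0.11, 0.23, -0.22 and -0.33 on WT 1 to WT 4. The list without globins was not computed.

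Intestinal genes differed within both slides. Fabp2, the fatty acid binder of the gut lining, was at 4.14, 0.61, -5.07 and -0.25, the largest difference between WT 3 and WT 4 of any ranked gene. Its SD was 3.79, and it was not called between slides (limma adjusted p = 0.156). The keratin Krt20 read 1.62, -2.97, -5.13 and -1.15, and the chloride channel regulator Clca4a 0.07, -6.56, -6.46 and -3.98, the largest difference between WT 1 and WT 2. Lct and Prap1 had the order of Krt20, highest on WT 1 and lowest on WT 3. Of 27 intestinal genes on the array 15 were ranked, and limma called 0 of them between slides in either direction. Their differences were nevertheless all below 0, at a median of -1.27, and without WT 2 limma called 7 of 20 lower, at a median of -2.60. Mup19, a urinary protein gene, stood out on WT 3, at -5.36, -4.84, -2.54 and -6.80. On WT 1 and WT 4 it lay below the median of olfactory and vomeronasal receptor genes (-4.90), and on WT 2 near it. Clca4a on WT 2 and WT 3, and Fabp2 and Krt20 on WT 3, also lay below that median. The sizes of these differences are therefore uncertain.

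Cell cycle genes formed another pattern, with centred medians of 0.65, -0.41, 0.53 and -0.73 on WT 1 to WT 4. The proliferation marker Mki67 read 1.76, 1.02, 2.32 and 0.84 and the topoisomerase Top2a -0.75, -2.07, -0.77 and -2.14. WT 1 and WT 3, which shared position 1 on their slides, were the higher, and WT 2 and WT 4, at position 2, the lower; position and source of the cells cannot be told apart. The list had 46 of 49 genes ranked at a median of 6037, and 1 gene, Hmgb2, fell between slides. Chil3, a chitinase-like protein of alternatively activated macrophages, read 3.35, 4.29, 1.57 and 5.68, so its rank ran from 238 on WT 4 to 4098 on WT 3.

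**Figure D5:**
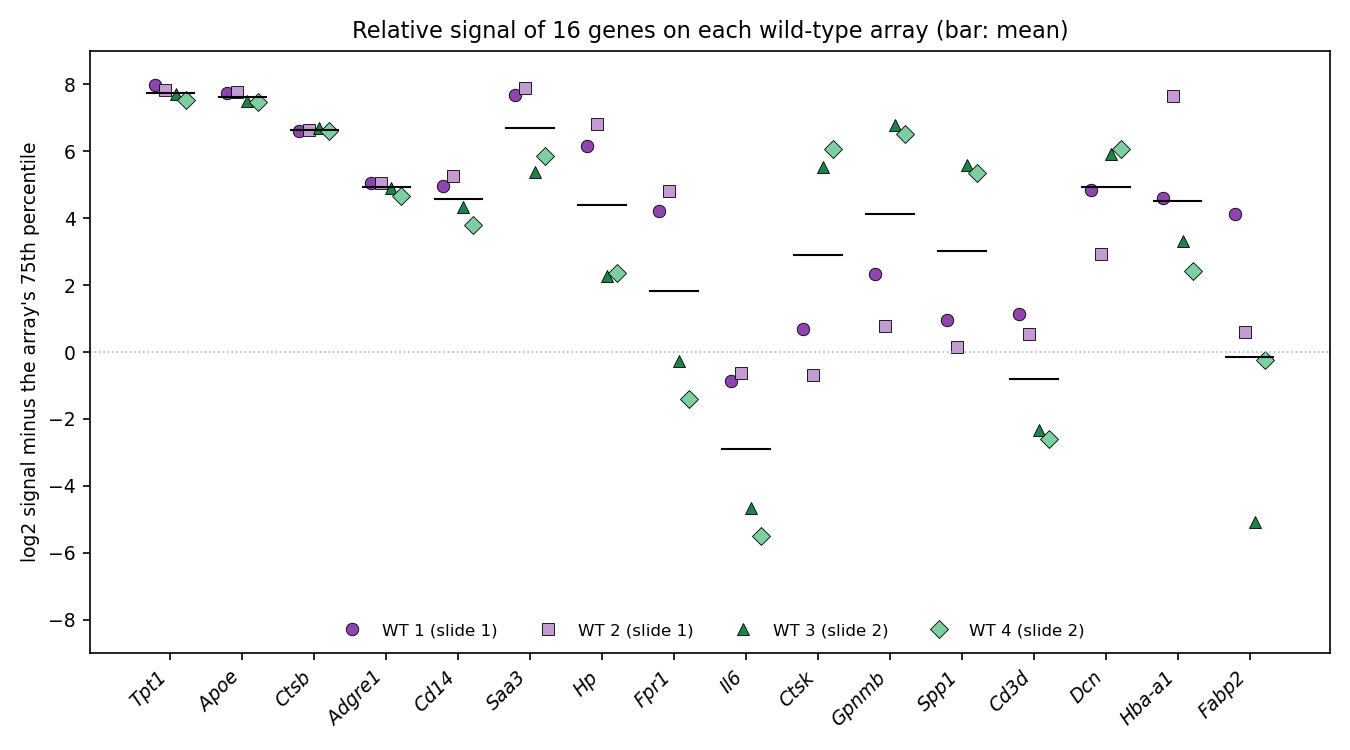
Relative signal (vertical axis, log2) of 16 genes on each of the 4 wild-type arrays, with the mean as a bar; purple symbols are slide 1 and green symbols slide 2. Tpt1, Apoe, Ctsb and Adgre1 lie close together, while Saa3, Hp, Fpr1, Il6 and Cd3d are higher on slide 1. Ctsk, Gpnmb and Spp1 are higher on slide 2, Hba-a1 stands high on 1 array, and Fabp2 is spread over all 4 arrays.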

How the data were processed

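RNA of macrophages had been labelled with Cy3 and hybridised to 8 1-colour Agilent arrays; the 4 WT arrays are ranked here. Per the file headers, the deposited scanner files hold spot intensity on a linear scale, background-corrected by Feature Extraction 10.7.1.1 but not scaled between arrays; version 9.1 of that software is named by the submitters' processing notes. The deposited series table holds the same intensity values (largest log2 difference 0).

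Control spots and spots with an outlier flag were left out, spots of 1 probe were averaged on the log2 scale, and values were set relative to the 75th percentile of their array. Of 39429 probes 27508 were named through RefSeq transcripts of assembly GRCm38.p6. The array's own build is mm9, so coordinates belong only to the promoter table. The comparison of slides, which includes the 5741 unnamed probes kept, used lmFit and eBayes of limma (version 3.58.1; R 4.3.3), a procedure tested on simulated data. The number of arrays limits the precision.

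Members and lists were chosen with earlier results of these data known. Named were Saa3, Cd14 and Adgre1, the 30 brightest genes, the 4 brightest of each list and members well above background on no WT array, the 12 largest slide differences per direction, the 15 largest SDs, the 5 largest differences within each slide and the 10 steadiest of the brightest 1000. Not every such gene is used, and other list members, and the promoter motifs out of 14 tried, were chosen after their values had been seen. Alternatives covered scaling, background, filters, choice of probe, variance model and each array left out.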

Additional observations from a re-analysis of the deposited data

Results flagged for a closer look

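In each of 250 genes named or examined and 40 lists, the highest or lowest of the 4 arrays was set against the other 3: a gap to the nearest array above Dixon's critical share of the whole range marks it as apart, which chance gives in about 1 of 20 groups (0.05). Over all ranked genes 501 of 14014 (3.57%) were marked; here 6 genes (2.4%) and 1 list (2.5%) were. The list was fibroblasts and mesothelium, whose centred median on WT 2 was low (gap 0.847 of the range), and with it the mesothelial genes Msln (0.884) and Upk3b (0.856; -1.13, -5.38, -0.53 and -1.23). Ptgs2 was high on WT 1 (0.896), but its values lay near the median of olfactory and vomeronasal receptor genes (-4.90), so this gap is uncertain. The other three had small ranges: 2610028H24Rik was high on WT 2 (0.860; 7.18, 7.50, 7.23 and 7.19), Cox6a1 low on WT 4 (0.883; 7.04, 7.07, 7.03 and 6.70) and Prkcsh high on WT 3 (0.843; 4.76, 4.76, 4.81 and 4.75).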

How the results depend on the processing

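The number of ranked genes, the genes among the brightest 100 on every array and the median SD stayed within 1.5 times their main values under every alternative run. With 1 array left out they ran from 14062 to 14387 genes, 61 to 68 genes and 0.292 to 0.319 log2 units. The slide calls were less stable. With normexp on the median spot signal (planned on the spot signal) limma called 0 features higher and 0 lower (smallest adjusted p 0.125; 2448 at an unadjusted p under 0.05), and with no filter on dim probes 0 and 0 (smallest adjusted p 0.055; 7536 unadjusted). With the spread taken from all 8 arrays it called 3136 higher and 3435 lower. With 1 array left out the counts ran from 0 to 1621 higher and 0 to 1168 lower. Scaling by the array median, which moves the median difference of all features from -0.04 to -0.20, turned the share of higher calls from 49.7% to 36.6%. In those settings with calls between 1990 and 3391, 1708 to 2829 of the called features were also called in the main setting. The medians of the lysosomal (0.54 to 0.87), T and NK (-2.65 to -1.26), LPS-induced (-1.12 to -0.47) and ribosomal (-0.74 to -0.28) lists kept their sign under all 15 alternatives, as an analysis added after seeing the data. Not all of these could turn a sign. The intensity trend, the spread from all 8 arrays, array weights and the block by position left every list median at its main value. Changes of the filter also left the lysosomal and ribosomal medians as they were. In at least 1 alternative the sign turned for 10 lists: oxidative phosphorylation, glycolysis, actin, chemokines, iron, cell cycle, macrophage identity, muscle, adipocytes and hepatocytes. Over the alternatives, only the called genes with the largest rises and falls, and Saa3, Cd14 and Adgre1, were followed singly. Their slide differences kept direction and side of the threshold 299 times, lost the threshold 103 times and gained it 3 times. Most of these genes were picked for large differences in these same arrays, so the counts do not describe single genes in general. With array position on the slide as a block, also added after seeing the data, limma called 1330 higher and 1328 lower, 2287 of them shared with the main setting. The cause of these changes was not tested. The block by position paired WT 1 with WT 3 and WT 2 with WT 4 across the slides. By replicate number, no paired analysis was possible because the arrays of the single group described carry 4 different replicate numbers.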
